A study of Rattus norvegicus with 5 samples.

Results

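The genes of the cell division cycle were followed in parietal cortex RNA of rats that had been given kaolin or saline. Kaolin is a clay that, when injected, obstructs the flow of cerebrospinal fluid and causes hydrocephalus, an enlargement of the ventricles. The kaolin group was injected on postnatal day 1 and its tissue was taken on postnatal day 22, which is post-kaolin day 21. The saline group was injected with saline and sampled at the same age. There were 5 two-colour arrays, each pairing 1 sample of either group directly, with kaolin RNA labelled with Cy3 and saline RNA with Cy5. Strain and sex are not given in the sources used here, nor is it said whether a sample is 1 animal, so the p-values measure the spread between arrays, which may be partly technical. No array had the dyes exchanged, and dye and treatment cannot be told apart.

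A set of 44 genes was chosen by name, from G1 cyclins to cytokinesis factors and the common markers of proliferation, and every array probe that carries 1 of these names was read. For 42 of the 44 a probe was matched by name, with 62 probes in all; no probe was matched to Mki67 or Mcm3. To be tested, a probe had to give a signal well above background, in the kaolin or the saline channel, on 3 or more arrays, which 57 of the 62 probes and 41 of the 44 genes met, against 29110 of 41012 probes and 12045 genes over the whole array. The gene left out by this filter was Cdk6, a kinase of the G1 phase, whose probe was above background in 2 kaolin and 0 saline samples. A gene is represented by its brightest tested probe, and its value is the log2 ratio of kaolin over saline, so that 0 means equal signal and 1 a doubling in the kaolin sample. Because the filter needs signal in only 1 channel, a dim gene could pass through the group in which it is brighter.

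Cell division is driven by cyclin-dependent kinases, whose cyclin partners appear and are destroyed in turn. D-type cyclins with Cdk4 and Cdk6 act in G1, cyclin E with Cdk2 starts DNA replication, the MCM helicase and the nucleotide-making enzymes carry it through, and cyclins A and B with Cdk1 bring the cell into mitosis, where the checkpoint and the anaphase-promoting complex control chromosome separation. In most tissues transcripts of the replication and mitosis genes are found mainly in dividing cells, whereas the D-type cyclins and the inhibitors are also made in cells that do not divide. In the postnatal cortex neurons no longer divide, while glial precursors, microglia, astrocytes and vascular cells can.

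Replication and mitosis genes share known promoter elements: the cell cycle genes homology region (CHR, read by the MuvB complex and common in late cell cycle genes), the CCAAT box (read by NF-Y) and the E2F site (common in replication genes). The RefSeq promoter table (rat build GRCr8, 250 bases before to 50 after the start) held 34 of the 44 genes; Ccnd1, Ccnd2, Cdk6, E2f1, Foxm1, Mcm4, Rrm2, Ccna2, Aurkb and Ube2c were not among them. The searches took TTTGAA and TTCGAA for the CHR, CCAAT for the CCAAT box, and TTTCCCGC, TTTCGCGC, TTTGCCGC and TTTGGCGC for the E2F site, on both strands. Shown are the 150 bases before the start, 5′ to 3′ along the gene, for 4 of the mitotic genes with high ratios. The replication gene Mcm6 and Stmn1 are shown as well. Stmn1 was the 1 gene whose brightest probe was lower in kaolin on every array. Capitals mark matches to these letters on either strand; in Mcm6, matches to an E2F site on the strand shown and on the other strand overlap. The Cdk1 stretch is chr20:19265143-19265292 on the plus strand, that of Ccnb2 chr8:79981659-79981808 on the minus strand, that of Top2a chr10:84473094-84473243 on the minus strand, that of Ccnb1 chr2:33655226-33655375 on the minus strand, that of Mcm6 chr13:42404353-42404502 on the minus strand and that of Stmn1 chr5:151965029-151965178 on the plus strand.
Cdk1: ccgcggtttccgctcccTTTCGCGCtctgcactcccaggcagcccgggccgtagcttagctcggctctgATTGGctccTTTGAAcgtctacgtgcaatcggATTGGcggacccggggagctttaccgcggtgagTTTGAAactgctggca
Ccnb2: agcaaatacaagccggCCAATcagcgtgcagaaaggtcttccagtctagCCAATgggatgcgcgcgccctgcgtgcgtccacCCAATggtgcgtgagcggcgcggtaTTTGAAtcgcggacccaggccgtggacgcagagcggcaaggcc
Top2a: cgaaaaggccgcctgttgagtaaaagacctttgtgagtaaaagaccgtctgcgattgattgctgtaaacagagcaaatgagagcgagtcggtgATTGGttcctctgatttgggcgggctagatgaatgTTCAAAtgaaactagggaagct
Ccnb1: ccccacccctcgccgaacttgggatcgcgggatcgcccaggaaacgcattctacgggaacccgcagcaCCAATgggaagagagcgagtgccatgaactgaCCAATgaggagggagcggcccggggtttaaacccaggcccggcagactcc
Mcm6: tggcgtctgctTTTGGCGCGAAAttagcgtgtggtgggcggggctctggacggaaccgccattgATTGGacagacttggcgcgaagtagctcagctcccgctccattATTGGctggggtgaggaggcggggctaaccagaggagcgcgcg
Stmn1: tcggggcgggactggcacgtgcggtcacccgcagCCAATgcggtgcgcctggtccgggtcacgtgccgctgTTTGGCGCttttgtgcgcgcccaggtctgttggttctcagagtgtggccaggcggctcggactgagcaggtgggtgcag

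In Cdk1 and Ccnb2, CCAAT boxes stand ahead of a CHR match: the CHR match nearest to the start begins 16 bases before it in Cdk1 and 43 bases before it in Ccnb2. Top2a has a CCAAT match 57 bases and a CHR match 22 bases before the start. Ccnb1 has only CCAAT matches to the letters searched, and a CHR with other letters was not searched for. Over the whole 300 bases, a CHR match was present in 16 of the 34 promoters (47.1%), against 19.5% of all 27457 rat promoters in the table. A CCAAT match was present in 23 (67.6%), against 37.7%, both together in 13 (38.2%), against 7.83%, and an E2F match in 8 (23.5%), against 2.25%. By role, E2F matches stood in 6 of 9 promoters of replication genes and CHR matches in 4 of 5 promoters of checkpoint and anaphase genes, while the 4 promoters of G1 cyclins and kinases held neither. A match of letters is a description and not evidence that a factor binds there. On rn4, the build of the array files, the probe of Cdk1 lies at chr20:20043755-20043814, that of Ccnb2 at chr8:74896165-74896224, that of Top2a at chr10:87771459-87771518 and that of Stmn1 at chr5:153231731-153231789.

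Most of the cell cycle genes were brighter in the kaolin samples on average, but the size differed greatly between arrays and no gene passed the test. Of the 41 genes, 38 (92.7%) had a mean log2 ratio above 0, against 56.5% of all 12045 genes. The median over the 41 genes was 0.11, -0.09, 0.87, 0.35 and 0.48 on replicates 1 to 5, with a mean of 0.35 ± 0.37 (SD, n = 5), against 0.02 ± 0.02 for the median of all genes. The median was lowest, and below 0, on replicate 2 and highest on replicate 3. These are counts over genes that passed the filter, 3 of which passed only through the kaolin channel. Of the 36 genes above background in both channels on all 5 arrays, 33 had a mean above 0 (91.7%), against 56.04% of all such genes. The mean was over 0.5 in 11 of the 41 genes, against 4.21% of all genes. In limma, fitted over all 29110 tested probes with Benjamini-Hochberg adjustment, 0 of the 57 member probes passed an adjusted p of 0.05, and 0% of all probes did. The smallest adjusted p, among the members and over the array, was 0.243. At an unadjusted p under 0.05, 5278 of the 29110 probes were counted, 8.81% higher and 9.32% lower in kaolin. By gene, 18 of the 41 genes were higher in kaolin, against 12.3% of all genes, and 1 was lower, against 6.61%. An exact sign permutation over 5 arrays cannot give a p under 0.0625.

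**Figure D1:**
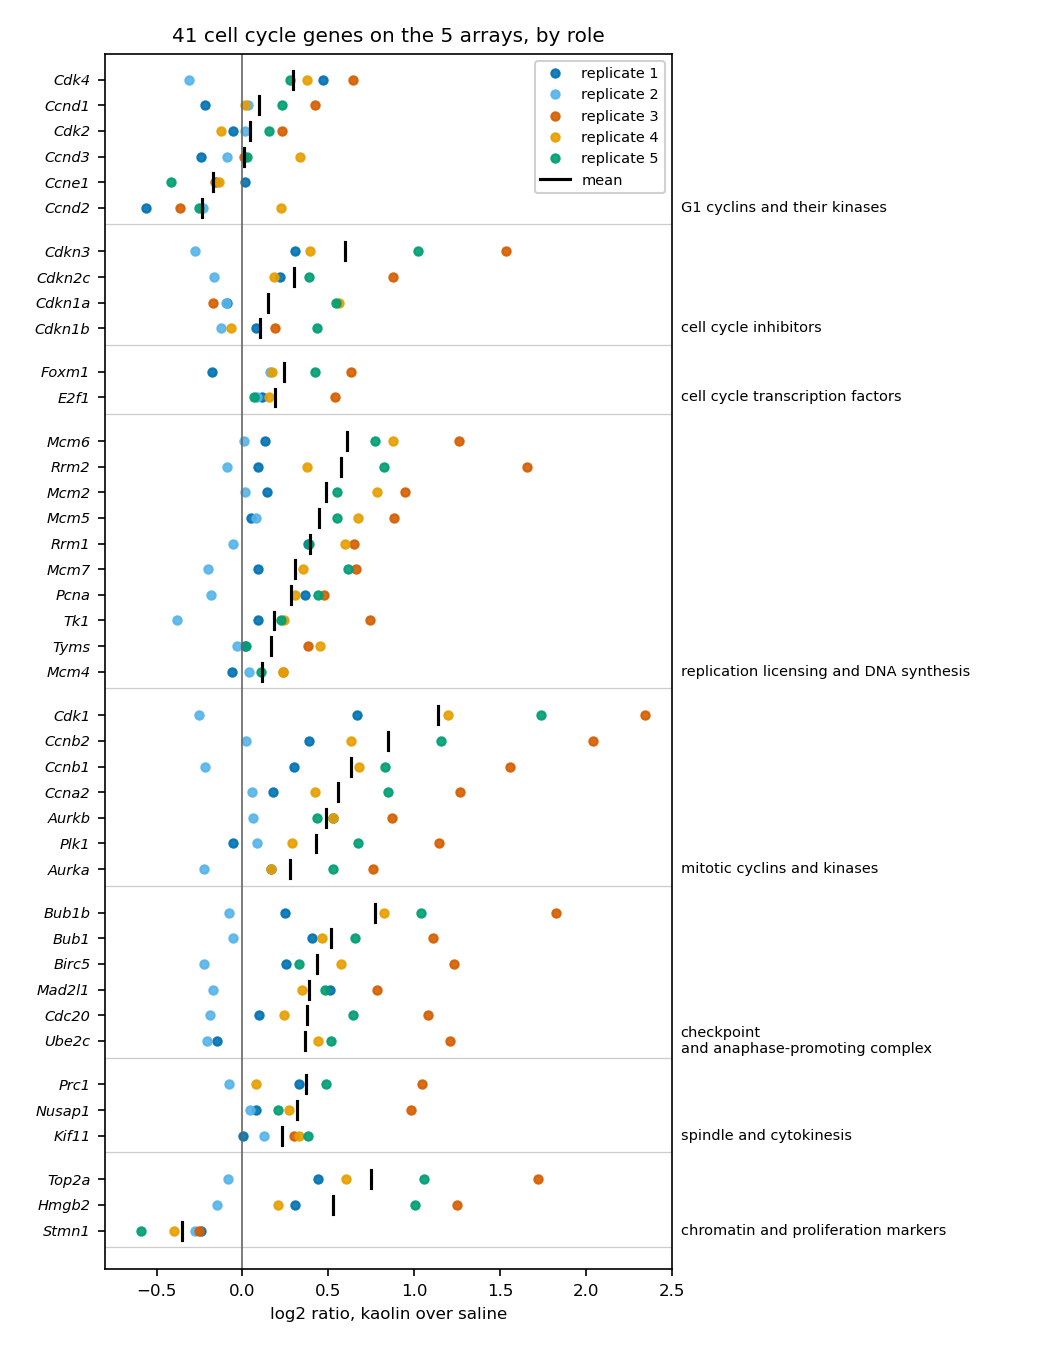
Log2 ratio of kaolin over saline (horizontal axis) of 41 cell cycle genes, grouped by role; each point is 1 of 5 arrays and the black bar is the mean. Replicate 3 lies farthest to the right for 33 genes and replicate 2 farthest to the left for 28, and Stmn1 lies below 0 on all 5 arrays.

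Most of the genes shared 1 pattern over the arrays. The ratio was highest on replicate 3 in 33 of the 41 genes (80.5%), against 20.9% of all genes, and lowest on replicate 2 in 28 (68.3%), against 31.0%. Over all probes the ratios of replicates 1 and 2 were negatively correlated (r = -0.325), while those of replicates 3 and 4 were positively correlated (r = 0.795). The labels give the same dye for kaolin on every array, so the direction was kept, and the results were also computed without replicate 2 and with its sign turned. Without replicate 2, 10 of the 57 member probes passed, all higher in kaolin, against 2.46% of all probes in that direction and 5.28% in either. They belong to Cdk1, Bub1, Aurkb, Mad2l1, Pcna, Rrm1 and Cdk4. With the sign of replicate 2 turned, 1 member probe passed, that of Cdk4, against 0.842% of all probes higher in kaolin and 1.68% in either direction. With arrays weighted by how well each followed the others, 19 member probes passed, 18 of them higher in kaolin, against 5.41% of all probes in that direction and 12% in either. Replicates 1 to 4 were scanned from 1 slide and replicate 5 from another; with slide as a term, 0 probes passed in limma. Without replicate 3 the median over the 41 genes was 0.21 in place of 0.35.

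G1 cyclins and their kinases stayed near 0 as a group. The median of the 6 tested genes was 0.01 ± 0.13 (SD, n = 5 arrays), 4 of the 6 had a mean above 0, and 0 were positive on all 5 arrays. The D-type cyclins carry growth signals into the cycle. Cyclin D1 (Ccnd1) had ratios of -0.22, 0.03, 0.42, 0.02 and 0.23 on replicates 1 to 5, with a mean of 0.10 ± 0.24 (SD) and an adjusted p of 0.606 in limma, and its other probe had a mean of 0.32. Cyclin D2 (Ccnd2), the D-type cyclin used by many neural precursors, had ratios of -0.56, -0.23, -0.36, 0.22 and -0.25, with a mean of -0.24 ± 0.29 and an adjusted p of 0.308. Cyclin D3 (Ccnd3) had ratios of -0.24, -0.09, 0.01, 0.34 and 0.03, with a mean of 0.01 ± 0.21. The 3 D-type cyclins had positive and negative arrays alike, and Ccnd2 was below 0 on 4 of 5. The Ccnd3 probe lies, by the array file, on a chromosome other than that of the gene in the reference annotation, so its identity is uncertain.

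Cyclin E1 (Ccne1), the partner of Cdk2 at the start of replication, was the 1 gene of 15 with more than 1 tested probe whose probes disagreed in sign, against 974 of 2931 genes over the array. Its brightest probe had ratios of 0.02, -0.16, -0.16, -0.14 and -0.41, with a mean of -0.17. Its other probe had ratios of 0.26, 0.07, -0.25, -0.06 and 0.07, with a mean of 0.02. The kinases Cdk4, partner of the D-type cyclins, and Cdk2 had means of 0.29 and 0.05. Cdk4 was above 0 on every array except replicate 2, on both of its probes.

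Inhibitors were mixed. Cdkn1a, which encodes the p53 target that halts the cycle, had ratios of -0.09, -0.10, -0.17, 0.56 and 0.54 on replicates 1 to 5, with a mean of 0.15 ± 0.37. It was above 0 on replicates 4 and 5 and not on replicate 3, the array on which most other cell cycle genes were highest. Cdkn1b, an inhibitor abundant in resting cells, had ratios of 0.08, -0.12, 0.19, -0.07 and 0.43, with a mean of 0.10 ± 0.22. Cdkn2c, which binds Cdk4 and Cdk6, had a mean of 0.30. Cdkn3 is named as an inhibitor but encodes a phosphatase of Cdk1 and Cdk2 that is made mainly in dividing cells. Its ratios were 0.30, -0.28, 1.53, 0.39 and 1.02, with a mean of 0.59 ± 0.70, with the arrays in the same order as for Cdk1. The transcription factors E2f1, which turns on replication genes, and Foxm1, which turns on mitotic genes, had means of 0.19 and 0.24, and E2f1 was above 0 on all 5 arrays.

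Of the genes for replication licensing and DNA synthesis, all 10 tested had a mean above 0, with a group median of 0.33 ± 0.30. In this group 3 of 10 were positive on all 5 arrays, and over the 41 genes 9 were (22.0%), against 7.95% of all genes. The 9 include Kif11 and Nusap1, which passed the filter only through the kaolin channel; with signal required in both channels on all 5 arrays the count was 5 of 36 (13.9%), against 7.78%. The MCM proteins form the helicase that opens DNA at origins. Mcm6 had ratios of 0.13, 0.01, 1.26, 0.87 and 0.77, with a mean of 0.61 ± 0.53, a 1.53-fold ratio, and an adjusted p of 0.243 in limma. Mcm2 had ratios of 0.14, 0.02, 0.94, 0.78 and 0.55, with a mean of 0.49 ± 0.40. Mcm5 had ratios of 0.05, 0.08, 0.88, 0.67 and 0.55, with a mean of 0.45 ± 0.37. On these probes the 3 subunits were close to 0 on replicates 1 and 2 and above 0.5 on replicates 3 to 5. The other tested probe of Mcm2 had ratios of 0.13, -0.17, 0.81, 0.65 and 0.26, with a mean of 0.34, and so was not positive on all 5 arrays. Mcm7 and Mcm4, subunits of the same ring, had lower means of 0.30 and 0.11.

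The enzymes that make DNA precursors had means between 0.17 and 0.57. Rrm2, the small subunit of ribonucleotide reductase and the one made in S phase, had ratios of 0.09, -0.09, 1.65, 0.38 and 0.83, with a mean of 0.57 ± 0.70, while its other probe had a mean of 0.12. Rrm1, the large subunit, had the smallest unadjusted p of the set, 0.00175 on 1 of its 3 probes (adjusted p = 0.243 in limma), and means of 0.39, 0.39 and 0.27 over the 3. The sliding clamp gene Pcna, a marker of DNA synthesis, had ratios of 0.37, -0.18, 0.47, 0.31 and 0.44, with a mean of 0.28 ± 0.27. Pcna was within a narrow range on 4 arrays, and replicate 2 alone was below 0. Tyms and Tk1, which make thymidine nucleotides, had means of 0.17 and 0.18, the second resting on replicate 3 (0.04 without it). The Tk1 probe, like that of Ccnd3, lies on a chromosome other than the gene's; without both genes 36 of 39 were above 0.

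The mitotic cyclins and kinases had a group median of 0.59 ± 0.48, against 0.01 ± 0.13 for the G1 group; both come from the same arrays and the difference was not tested. All 7 had a mean above 0, and 3 were positive on all 5 arrays. Cdk1, the kinase that starts mitosis, had ratios of 0.67, -0.25, 2.34, 1.20 and 1.74, with a mean of 1.14 ± 1.00 (adjusted p = 0.243 in limma). It was above 0 on all arrays except replicate 2 and was more than doubled on 3. Cyclin B2 (Ccnb2), a partner of Cdk1, had ratios of 0.39, 0.02, 2.04, 0.63 and 1.15, with a mean of 0.85 ± 0.78, and cyclin B1 (Ccnb1) had 0.30, -0.22, 1.56, 0.68 and 0.83, with a mean of 0.63 ± 0.66. Cyclin A2 (Ccna2), which acts in S phase and G2, had ratios of 0.18, 0.06, 1.27, 0.42 and 0.85, with a mean of 0.55 ± 0.50. On these probes all 3 cyclins kept the order of the arrays seen for Cdk1. Replicate 3 came first, then replicate 5, replicate 4, replicate 1 and replicate 2. The other tested probe of Ccnb1 had ratios of 0.19, 0.01, 0.71, 0.13 and 0.67, with a mean of 0.34. It was above 0 on replicate 2 and was higher on replicate 1 than on replicate 4.

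Aurora B (Aurkb), the kinase of the chromosomal passenger complex, had the smallest SD of the 7. Its ratios were 0.53, 0.06, 0.87, 0.52 and 0.43, with a mean of 0.48 ± 0.29 and an unadjusted p of 0.00406 (adjusted p = 0.243 in limma). Its probe was above background in 4 of 5 samples of each group. Polo-like kinase 1 (Plk1) and Aurora A (Aurka), which act at centrosomes and spindle poles, had means of 0.43 and 0.28.

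The spindle checkpoint and the anaphase-promoting complex hold and then release the chromosomes. On their brightest probes all 6 genes had a mean above 0 and all 6 were below 0 on replicate 2. The group median was 0.45 ± 0.49. The checkpoint kinase-like gene Bub1b had ratios of 0.25, -0.08, 1.82, 0.82 and 1.04, with a mean of 0.77 ± 0.74. Its other tested probe had a mean of 0.57 and was above 0 on all 5 arrays, at 0.06 on replicate 2. Bub1, a checkpoint kinase at the kinetochore, had ratios of 0.41, -0.06, 1.11, 0.46 and 0.66, with a mean of 0.52 ± 0.42. On their brightest probes Bub1b and Bub1 were above 0 on the same 4 arrays. Birc5 (survivin), Mad2l1, Cdc20 and Ube2c, which act in the passenger complex, the checkpoint and the anaphase-promoting complex, had means between 0.36 and 0.43, of which those of Birc5, Cdc20 and Ube2c were 0.23, 0.20 and 0.15 without replicate 3.

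Spindle and cytokinesis genes were close to the limit of detection. Kif11 (the motor that separates the spindle poles), Nusap1 and Prc1 (which bundle spindle microtubules) were well above background in 3, 3 and 4 kaolin samples and in 0 saline samples each. With saline signals below the lowest measurable signal raised to it, their mean was 1.13-, 1.22- and 1.29-fold higher in kaolin. For Prc1 this changed nothing, and 1.29 is its plain ratio. Kaolin signals not above background were used as measured, so these values are not strict lower bounds. The ratios without this step had an adjusted p of 0.244, 0.290 and 0.277 in limma (n = 5). These 3 genes passed the filter only through the kaolin channel, so their direction is not independent of the filter.

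The last group holds chromatin genes and markers of proliferation. Top2a, the topoisomerase that untangles chromosomes, had ratios of 0.44, -0.08, 1.72, 0.60 and 1.06, with a mean of 0.75 ± 0.68. Its other probe had a mean of 0.43 and was above 0 on all 5 arrays. Hmgb2, a DNA-bending protein abundant in dividing cells, had ratios of 0.31, -0.15, 1.25, 0.21 and 1.00, with a mean of 0.52 ± 0.58. Stmn1 (stathmin), which destabilises microtubules and is abundant in immature neurons as well as in dividing cells, stood on the other side of 0. Its ratios were -0.24, -0.28, -0.25, -0.40 and -0.59, with a mean of -0.35 ± 0.15, 1.28-fold higher in saline (unadjusted p = 0.00269, adjusted p = 0.243 in limma). By brightest probe it was the 1 gene of the 41 that was negative on all 5 arrays, against 5.24% of all genes. Its other probe had ratios of 0.05, -0.14, -0.01, -0.29 and -0.33, with a mean of -0.15 and an adjusted p of 0.355 in limma. That probe was thus not negative on all 5 arrays.

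**Figure D2:**
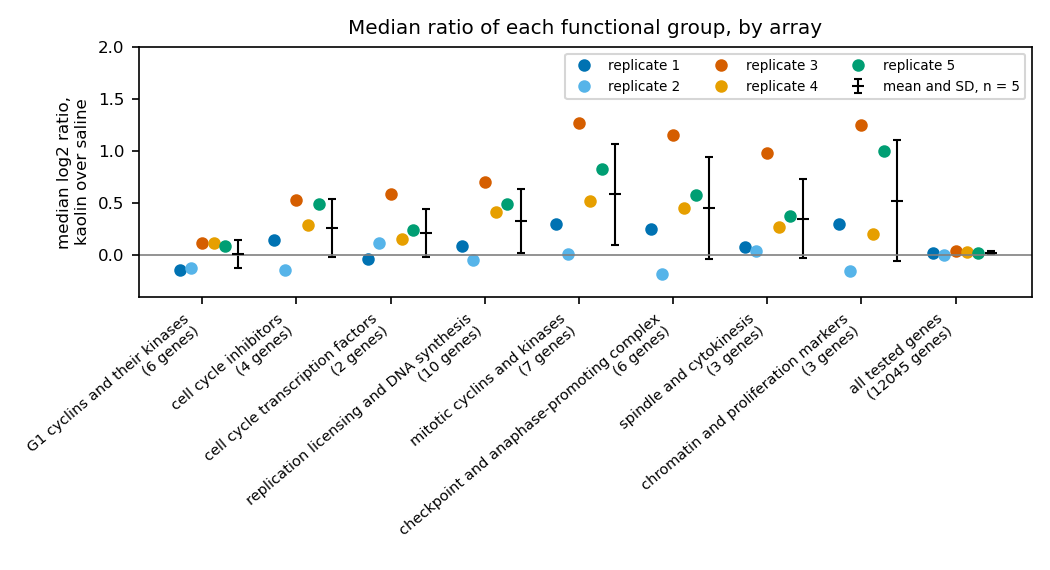
Median log2 ratio of kaolin over saline in each functional group (vertical axis) on each of the 5 arrays (points), with the mean and SD over arrays (black, n = 5). The mitotic cyclins and kinases have the highest mean, 0.59, the G1 cyclins and their kinases lie at 0.01, and all tested genes at 0.02.

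Many means rest on 1 array. Without replicate 3 the mean moved by over 1.5 times or changed sign in 20 of the 41 genes. It then was 0.55 for Ccnb2, 0.51 for Bub1b, 0.40 for Ccnb1, 0.36 for Cdkn3, 0.30 for Rrm2 and 0.34 for Hmgb2, against 0.84 for Cdk1. In the same way it was 0.25 for Plk1, 0.16 for Aurka, 0.20 for Prc1 and 0.15 for Nusap1. Outside mitosis it was 0.16 for Cdkn2c, 0.14 for Foxm1, 0.10 for E2f1 and -0.0015 for Cdk2. Without replicate 2 Cdk4 stood at 0.44 and Tk1 at 0.32, and without replicate 4 Tyms stood at 0.0968. Over the 5 ways to leave out an array, Ccnd1 lay between 0.02 and 0.18, Cdkn1a between 0.05 and 0.23, Cdkn1b between 0.02 and 0.16, Cdk2 between -0.0015 and 0.0873, and Ccnd3 between -0.07 and 0.07. Ccnd2 lay between -0.35 and -0.16 and Ccne1 between -0.22 and -0.11.

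The level in each sample, as log2 intensity of the gene's brightest tested probe after normalization between channels, shows which samples carried the ratios. The spread was on the kaolin side. The SD over the 5 kaolin samples was larger than over the 5 saline samples in 39 of 41 genes (95.1%), against 73.4% of all genes, with a median SD of 0.33 in kaolin and 0.12 in saline. Set against each gene's mean over the saline samples, the median gene stood at 0.10, -0.03, 0.77, 0.37 and 0.40 in kaolin samples 1 to 5, and at -0.03, 0.09, 0.02, -0.01 and -0.06 in saline samples 1 to 5. The saline samples thus lay within a narrow band, and kaolin samples 3, 4 and 5 stood above it.

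Cdk1 had levels of 8.82, 8.29, 10.78, 9.60 and 10.09 in kaolin samples 1 to 5, against 8.15, 8.55, 8.44, 8.40 and 8.35 in saline samples. Kaolin sample 2 lay inside the saline range and the other 4 above it. Mcm6 had levels of 8.08, 7.92, 9.17, 8.76 and 8.60 in kaolin samples, against 7.95, 7.91, 7.92, 7.89 and 7.83 in saline samples, which lay close together. Here too kaolin sample 2 was the one within the saline range. Ccnb2 had levels of 7.31, 7.12, 8.81, 7.64 and 8.24 in kaolin samples, against 6.93, 7.10, 6.77, 7.01 and 7.08 in saline samples, and the groups did not overlap. Every kaolin sample lay above every saline sample in 3 of the 41 genes (E2f1, Ccnb2 and Nusap1), against 2.03% of all genes. Of these, Nusap1 had passed the filter only through the kaolin channel, so its separation is not independent of the filter. Every kaolin sample lay below every saline sample in 1 gene, Stmn1, against 1.18%. Stmn1 had levels of 16.18, 16.09, 16.03, 15.91 and 15.74 in kaolin samples, against 16.42, 16.37, 16.29, 16.31 and 16.33 in saline samples.

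**Figure D3:**
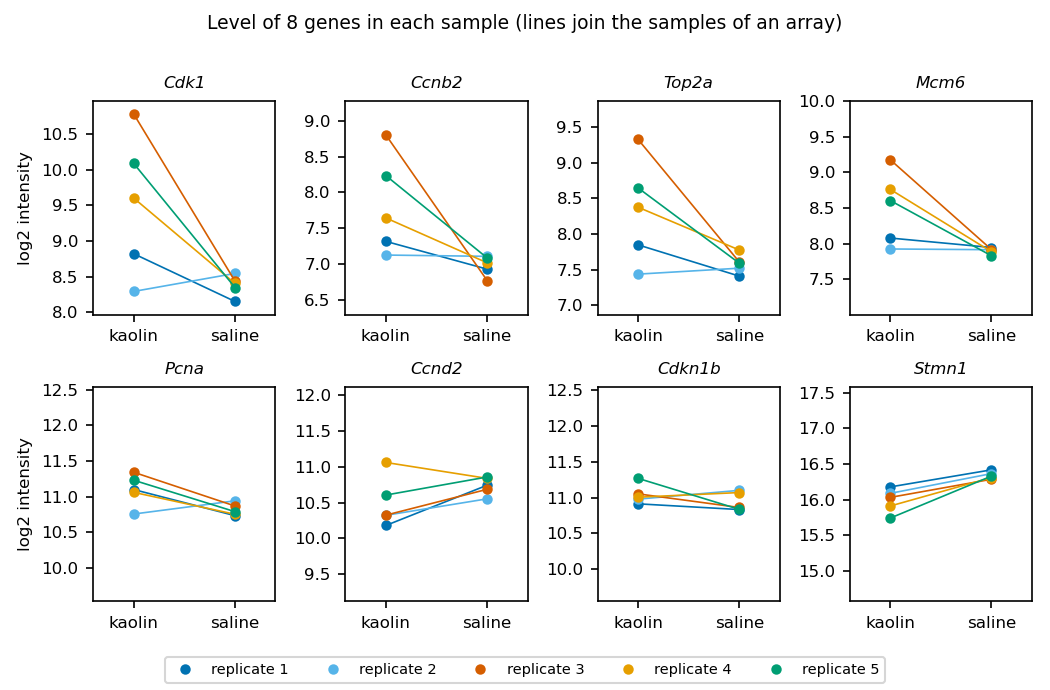
Level of 8 genes in each sample as log2 intensity (vertical axis, the same span of 3 in every panel), kaolin left and saline right, with lines joining the samples of an array. For Cdk1, Ccnb2, Top2a and Mcm6 the saline points lie close together while the kaolin points spread upwards; Stmn1 lies lower in kaolin on all 5 arrays.

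The other genes of the pathway were read from 117 further names in 3 lists drawn from textbook knowledge. The lists were chosen with earlier results of these data known, so the counts below are not independent of the data. Of the 117 names, 84 were tested and 0 passed in limma. Of the 84, 70 had a mean above 0, against 56.5% of all genes, and 19 were positive on all 5 arrays, against 7.95%. At an unadjusted p under 0.05, 27 were higher in kaolin, against 12.3%, and 1 was lower, against 6.61%. Some of the 84, such as Cenpa and Kif2c, passed the filter only through the kaolin channel, so these counts are not independent of the filter. With signal required in both channels on all 5 arrays, 58 of 71 had a mean above 0, against 56.04% of all such genes. By list, 28 of 31 mitosis genes, 23 of 26 replication genes and 19 of 27 genes of G1 and checkpoint control had a mean above 0. The median over arrays was 0.29 ± 0.32, 0.18 ± 0.20 and 0.10 ± 0.06 in these lists; the difference between the lists was not tested.

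The mitotic motors Kif20a and Kif2c and the cytokinesis factor Racgap1 had means of 0.75, 0.50 and 0.71, each above 0 on all 5 arrays. Kif2c was above background in 4 kaolin and 2 saline samples, so its direction is not independent of the filter. Myc, which promotes entry into the cycle, had a mean of 0.56, the repressor-type factor E2f5 of 0.30, and Sesn1, a p53 target, of 0.37. All 6 had an adjusted p of 0.243 in limma. On the other side, Cdc25b, a phosphatase that activates Cdk1, had ratios of -0.54, -0.12, -0.19, -0.45 and -0.32, with a mean of -0.32 ± 0.18, opposite in sign to Cdk1 itself. The retinoblastoma family members Rbl2 and Rb1 had means of -0.17 and -0.11, the antiproliferative gene Btg2 of -0.33, and Wee1 (which inhibits Cdk1) and Ccnh (cyclin H) of -0.13 and -0.14. The adjusted p of these 5 lay between 0.329 and 0.537 in limma.

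Among the marker lists, those of microglia and of reactive astrocytes had the largest values on the arrays where the cell cycle genes were highest. The order of the arrays was not particular to them. The microglial list was highest on replicate 3 and next on replicate 5, as was the cell cycle median. The reactive astrocyte list was highest on replicate 5 and next on replicate 3. At lower values, the meningeal fibroblast and erythroid lists were also highest on replicate 3 and next on replicate 5. The erythroid list kept the full order of the cell cycle median. Of 10 microglia and macrophage markers 9 were tested, all above background in all 10 samples, and their median ratio was -0.11, 0.08, 2.10, 1.30 and 1.57 on replicates 1 to 5. Of 8 reactive astrocyte markers 7 were tested, and their median was 0.14, -0.06, 2.57, 2.14 and 2.61. Against the saline mean, the median microglial marker ranged from -0.0039 to 2.13 over kaolin samples and from -0.15 to 0.11 over saline samples, and the median reactive astrocyte marker from -0.26 to 2.84 over kaolin samples and from -0.28 to 0.21 over saline samples. Both lists were thus near 0 on replicates 1 and 2 and high on replicates 3 to 5, the arrays on which the cell cycle median was also highest. Their part in the cell cycle ratios was not tested. In tissue RNA, more dividing cells and more transcript per cell cannot be told apart.

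Single markers differed in how far they showed this. The microglial gene Aif1 had ratios of 0.61, -0.05, 2.10, 1.35 and 1.57, and the lysosomal macrophage marker Cd68 had -0.16, 0.03, 2.36, 1.66 and 2.48. The astrocyte filament gene Gfap had ratios of 0.39, 0.60, 2.81, 2.32 and 2.95. These 3 were higher on replicates 3 to 5 than on replicates 1 and 2, and had an adjusted p of 0.243 in limma. P2ry12, a marker of resting microglia that was picked out after its values were seen, had -0.41, 0.07, 0.61, -0.14 and 0.14, with a mean of 0.05. Other cell types that can divide were read in the same way, and their part in the cell cycle ratios was not tested either. The median of 5 oligodendrocyte precursor markers was -0.02, 0.27, 0.05, 0.11 and -0.12, with 4 of the 5 at a mean above 0 and Pdgfra at -0.09. That of 7 endothelial and pericyte markers was -0.10, 0.05, 0.22, 0.01 and -0.10, with Pecam1 at 0.02. The median of 7 neural progenitor and neuroblast markers was -0.22, -0.04, 0.21, 0.02 and 0.38. Their means ran from -0.26 for Dcx to 0.46 for Nes, with 4 of the 7 above 0.

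Tissue markers were also read. The median of 6 ependymal markers was 0.40, -0.13, 0.69, 1.103 and 0.50, that of 8 meningeal fibroblast markers -0.53, -0.08, 0.76, 0.11 and 0.40, and that of 6 choroid plexus markers -0.74, -0.81, -0.95, -0.36 and -0.04. Of the choroid plexus markers, Otx2 and Clic6 passed the filter only through the saline channel, so the direction of this list is not independent of the filter. The median of 5 erythroid markers was -0.61, -0.73, 0.43, -0.11 and 0.25. Whether the amount of neighbouring tissue differed between samples was not tested. Of 7 markers of cortical excitatory neurons 6 were tested, and each of the 6 was above background in all 10 samples. A tested marker already had signal on 3 or more arrays, so this is only a partial check of the labelled tissue. Slc17a7 had a mean of 0.08. The mean over arrays of the list median was 0.03 ± 0.23 for 8 astrocyte markers, -0.15 ± 0.51 for 5 erythroid markers, 0.02 ± 0.08 for the 2 lymphocyte markers of 8 that passed the filter and -0.17 ± 0.15 for the neuronal markers.

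**Figure D4:**
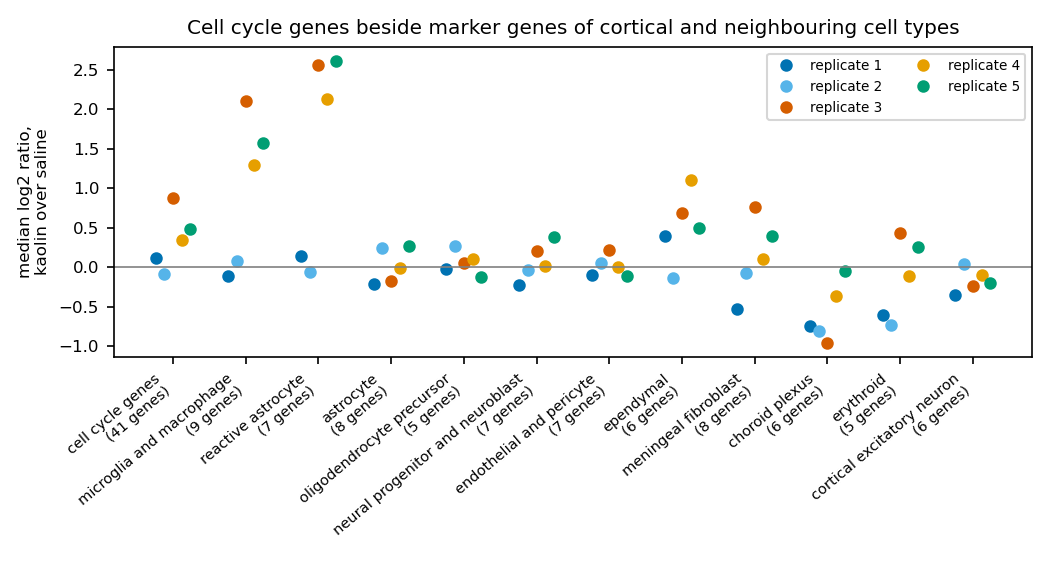
Median log2 ratio of kaolin over saline (vertical axis) of the 41 cell cycle genes and of 11 lists of cell type markers on each of the 5 arrays (points). Microglial and reactive astrocyte markers lie above 1 on replicates 3 to 5 and near 0 on replicates 1 and 2, and the cell cycle genes are highest on replicates 3 and 5.

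The direction of the smallest ratios depended on the scaling. With each array centred on its median in place of loess, the median of all genes moved by -0.12, 32.8% of all genes had a mean above 0 in place of 56.5%, and 33 of the 41 cell cycle genes (80.5%) had a mean above 0. Ccnd1, Ccnd3, Cdkn1a and Cdkn1b then stood on the other side of 0, at -0.10, -0.15, -0.0058 and -0.09. With this centring Pcna stood at 0.0866 (adjusted p = 0.556 in limma), Ccnd2 at -0.42 and Ccne1 at -0.38. With the scanner's processed signals, on the other hand, several means were more than 1.5 times larger: Ccnb2 stood at 1.33, Bub1b at 1.27, Rrm2 at 1.14, Mcm5 at 1.11, Ccna2 at 0.96, Aurkb at 0.87 and Mcm2 at 0.73, each with an adjusted p of 0.262 in limma. With the median over a gene's probes Rrm2 stood at 0.35, Ccnd1 at 0.21 and Ccne1 at -0.08. Cdk1 lay between 0.99 and 1.36 over the settings that kept all 5 arrays.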

How the data were processed

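RNA from 5 kaolin and 5 saline cortex samples was hybridised in pairs to 5 Agilent whole-genome rat arrays. The scanner files were written by Agilent Feature Extraction (version 10.1.1.1), as the headers say. Per the file headers, mean spot signal and local background are intensity values without correction, while processed signals are intensity values with background removed and dyes normalized. Also per the file headers, the scanner software's own ratio is given as log10 of Cy5 over Cy3. Background and outlier flags are other values, per the file headers. The authors' deposited series matrix holds log2 ratios; its direction, kaolin over saline, was found from the values (correlation with the scanner log ratio from -1.00 to -0.978), its column medians were 0.02, -0.05, -0.02, 0.09 and -0.10, and the authors' centring and normalization stay unknown.

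Outlier spots (86 to 147 per array) were left out. Signals were corrected with normexp (offset 50), normalized by loess within each array with control spots given no weight, averaged over spots of a probe, and turned to log2 of kaolin over saline. Sample levels were taken after loess and Aquantile scaling and are open to dye bias. Between 27956 and 29384 of 41012 probes per array gave signal well above background for kaolin and between 27371 and 28927 for saline, and 0 spots were saturated. The number of arrays limits the precision. The test was lmFit and eBayes in limma 3.58.1 (R 4.3.3, read with version 1.17.8 of data.table), an intercept against 0, two-sided, adjusted over all tested probes at 0.05; it was checked on simulated data. The array is the pair, as the labels place both samples on it. The fold values of Kif11, Nusap1 and Prc1 use, per array, a raised saline signal and the kaolin signal as measured. The raised saline signal is the higher of the lowest signal well above background and the probe's own.

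Probes were named through current RefSeq gene symbols: 10759 by accession, 286 by another accession of the probe, 5007 by symbol, 3349 by an older symbol, and 21611 kept the file's name. Gene models of the files' build (rn4) were not used here, and positions within transcripts are left out. The members and all gene lists were chosen with earlier results of these data known. Values per array are given for the 14 members with the largest mean in either direction, for Top2a, Pcna, Cdk1, 3 D-type cyclins, Cdkn1a and Cdkn1b, for genes whose probes disagreed in sign, and for Stmn1, which was added after its values were seen. Of the further lists, the 6 genes with the smallest p in each direction are named, and 6 cell type markers. Other members are named by their means. Alternatives changed the background correction, normalization, filter, probe rule, array weights, slide term, pairing, sign of replicate 2 and the arrays included.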

Additional observations from a re-analysis of the deposited data

Results flagged for a closer look

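Among 54 sets of 5 arrays examined for 1 value far from the others, which include the 41 genes, 3 were found, where chance gives about 1 in 20. E2f1 had a ratio of 0.54 on replicate 3, apart from 0.07 to 0.15 on the other arrays. Nusap1 had 0.98 on replicate 3, apart from 0.05 to 0.27 on the others, with saline signal not well above background on any array. Pcna had -0.18 on replicate 2, apart from 0.31 to 0.47 on the others. The cause was not tested.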

How the results depend on the processing

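Of the values reported for single genes under an alternative, 357 of 376 kept their direction and their side of the threshold, 14 passed it and 5 changed sign. The settings that changed only the filter, and the single-channel fit, reuse the ratios of the main fit. There the direction could not change, only the side of the threshold. The scanner's log ratio and the authors' series matrix hold nearly the same values and are counted as separate settings. With 0 probes passing in the fit as reported, 22 probes of the array passed with median centring, 3497 with array weights (12% of those tested), 489 with the sign of replicate 2 turned (1.68%) and, leaving out each replicate in turn, 0 to 1536 (5.28% without replicate 2, and 1 without replicate 1). In the single-channel fit with no replicate block, that is without the pairing by array, 3 probes passed and 0 of the members. Member probes passing numbered 19 with array weights (18 higher, and Stmn1 lower), 1 with the sign of replicate 2 turned, and 0 to 10 with a replicate left out; 8 probes passed both with array weights and without replicate 2. The weights were 0.78, 0.46, 1.37, 2.38 and 0.85 for replicates 1 to 5. Members positive on every array numbered 14 with the scanner's processed signals (9.55% of all genes). They were 5 of 36 with signal required in both channels on all 5 arrays (7.78% of all such genes). With the sign of replicate 2 turned they numbered 20 (14.7% of all genes). With a replicate left out they numbered 9 to 29. The 9 were seen without replicate 3, 4 or 5 (8.84%, 9.37% and 11.1% of all genes), and the 29 without replicate 2 (22.6%). Changes of sign were seen with median centring for Ccnd1 (-0.10), Ccnd3 (-0.15), Cdkn1a (-0.0058) and Cdkn1b (-0.0925), and without replicate 4 for Ccnd3 (-0.0742, where leaving out single replicates gave up to 0.0705). The cause was not tested. The member median lay between 0.21 and 0.45 with a replicate left out and between 0.26 and 0.56 in the other alternatives. The count without Ccnd3 and Tk1 was added after seeing the data. Depth limits Cdk6, Kif11, Nusap1 and Prc1, whose saline signal was not well above background.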
